A study of Homo sapiens with 3 samples.

Results

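The 53 genes described here encode mitotic kinases, cyclins, kinetochore and spindle checkpoint proteins, condensin, cohesin and the factors that act on them. They were taken by gene name from the 50868 genes of the count files, and each name matched 1 row. The libraries came from NCI-H23 cells, an established line from a human lung adenocarcinoma, transfected with siRNA against USP16 (2 libraries, siUSP16) or with control siRNA (1 library, control). USP16 encodes a deubiquitinase that acts on histone H2A. The siUSP16 libraries are numbered 1 and 2 in their labels, which do not say whether these are separate siRNAs or separate cultures. The spread between them may thus be technical or come from unlike siRNAs, and these cannot be told apart. The siRNA sequences, doses and times are not given here.

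In mitosis, cyclin B with CDK1 starts chromosome condensation and nuclear envelope breakdown. Kinetochores then assemble on centromeres marked by the histone variant CENP-A, and the spindle checkpoint holds back the anaphase-promoting complex until every kinetochore has bound microtubules. PLK1 and the Aurora kinases act through all of these steps, and separase finally cuts cohesin so that sister chromatids part. Most of these genes are transcribed in late S phase and G2, many through promoters with a cell cycle homology region (CHR) near the start site and CCAAT boxes upstream. USP16 is known to deubiquitinate H2A before mitotic entry and has been linked to the placing of PLK1 at kinetochores. In bulk RNA, fewer cells in G2 and M and less of these mRNAs per cell cannot be told apart.

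The promoters of 4 genes are shown as examples. HJURP had the lowest change of the members and CENPE the highest, and PLK1 is the kinase linked to USP16. CCNB2 has the arrangement of CCAAT boxes and a CHR that is typical of G2 genes. HJURP and CENPE were picked by their changes, and a link between these motifs and the changes was not tested. Each runs from 250 bases before to 50 after the RefSeq start site on GRCh38.p14. Capitals mark TTTGAA (the letters used here for the CHR) and CCAAT on either strand, so ATTGG is a CCAAT on the other strand. Only these letters were searched, so a CHR with other letters would be missed. HJURP lies at chr2:233854486-233854785 on the minus strand, CENPE at chr4:103198294-103198593 on the minus strand, PLK1 at chr16:23678639-23678938 on the plus strand and CCNB2 at chr15:59104896-59105195 on the plus strand.
HJURP: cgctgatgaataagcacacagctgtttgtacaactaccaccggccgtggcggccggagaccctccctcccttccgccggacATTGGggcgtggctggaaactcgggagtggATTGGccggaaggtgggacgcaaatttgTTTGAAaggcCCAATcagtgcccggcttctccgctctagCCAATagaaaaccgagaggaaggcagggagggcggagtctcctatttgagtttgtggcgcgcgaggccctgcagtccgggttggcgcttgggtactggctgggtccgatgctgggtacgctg
CENPE: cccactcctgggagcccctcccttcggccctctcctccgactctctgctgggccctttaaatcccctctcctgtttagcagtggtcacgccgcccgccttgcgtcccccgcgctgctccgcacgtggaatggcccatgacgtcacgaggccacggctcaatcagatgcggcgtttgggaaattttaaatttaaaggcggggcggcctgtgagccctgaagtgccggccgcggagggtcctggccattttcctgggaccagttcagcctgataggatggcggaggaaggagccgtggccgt
PLK1: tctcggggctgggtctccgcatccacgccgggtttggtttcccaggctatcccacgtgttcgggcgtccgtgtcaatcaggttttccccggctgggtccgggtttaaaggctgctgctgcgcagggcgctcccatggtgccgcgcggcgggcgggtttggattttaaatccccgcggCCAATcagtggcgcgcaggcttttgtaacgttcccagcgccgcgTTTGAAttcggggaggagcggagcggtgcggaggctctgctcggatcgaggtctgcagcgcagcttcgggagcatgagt
CCNB2: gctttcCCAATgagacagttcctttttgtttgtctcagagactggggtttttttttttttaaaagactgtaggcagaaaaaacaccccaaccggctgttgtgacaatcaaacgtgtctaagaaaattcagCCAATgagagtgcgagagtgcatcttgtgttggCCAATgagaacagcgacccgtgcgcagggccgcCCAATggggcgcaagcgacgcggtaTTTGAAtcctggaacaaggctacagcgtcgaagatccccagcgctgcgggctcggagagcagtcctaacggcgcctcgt
PLK1 and CCNB2 both hold the CHR letters at position -29, where 0 is the first transcribed base, with CCAAT letters at -73 in PLK1 and at -244, -120, -87 and -54 in CCNB2. HJURP holds the CHR letters further upstream, at -111, between CCAAT letters at -169, -139, -101 and -72. The CENPE window holds neither TTTGAA nor CCAAT.

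Over all members, the 2 motifs were more frequent than in promoters at large. Of the 53 members, 44 matched an entry in the promoter table; AURKA, BIRC5, BUB3, TTK, CENPH, CASC5, RAD21, TPX2 and FOXM1 did not. TTTGAA was in 27 of these 44 windows (61.4%), against 15.4% of all 27305 promoters of this length, and CCAAT was in 28 (63.6%), against 35.7%. Both were in 18 members (40.9%), against 6.08% of all promoters. The 27 members with TTTGAA had median log2 changes of -0.02 in siUSP16 library 1 and -0.10 in library 2, and the 17 without it had medians of 0.02 and 0.05. A match is a description of the letters and not a bound site.

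The count totals were 13956382 and 15071179 in siUSP16 libraries 1 and 2 and 14007161 in the control. USP16, the targeted gene, had 109 and 245 counts in siUSP16 libraries 1 and 2, against 632 in the control, which is 16.2% and 33.2% of the control level after scaling. All 6 epithelial markers were detected, 5 of them lower in both siUSP16 libraries, with KRT8 at 1118 and 1880 counts in the siUSP16 libraries and 2214 in the control and CDH1 at 39 and 93 counts in the siUSP16 libraries and 142 in the control. The sixth, EPCAM, was higher in both, at 161 and 232 counts in the siUSP16 libraries and 38 in the control (edgeR adjusted p = 0.757). The lung markers SFTPB and SFTPC were at 0 in all 3 libraries and NKX2-1 and NAPSA, at 4 and 10 and at 20 and 9 counts in siUSP16 libraries 1 and 2, had 6 and 20 in the control. Of the defining markers of other cells, PTPRC, CD3E and MS4A1 of immune cells had at most 1 count in any library, and PECAM1 of endothelium at most 1. The other 2 immune markers were detected, CD68 with 144 and 130 counts in the siUSP16 libraries and 78 in the control, and CD14 with 114 and 59 counts in the siUSP16 libraries and 91 in the control. The fibroblast collagen gene COL3A1 had 67 and 94 counts in the siUSP16 libraries and 19 in the control. LUM, from the same marker list, had 26 and 140 counts in siUSP16 libraries 1 and 2 and 20 in the control. Of these 6 endothelial and fibroblast markers, only COL3A1 and LUM passed the filter on low counts. These 2 together had 6.56 and 15.04 CPM in the siUSP16 libraries and 2.93 CPM in the control. VWF had 5 and 4 counts in the siUSP16 libraries and 6 in the control. CDH5 had 0 and 8 against 0 in the control, and DCN 2 and 2 against 0. The part of these markers in the results was not tested.

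As a group the mitotic genes stayed close to the control. Of the 53 members, 20 were higher and 18 lower than the control in both siUSP16 libraries, and 15 lay on opposite sides of it in the 2 libraries. Over all 17287 genes tested, 33.4% were higher in both and 33.5% lower in both, and over the 11236 genes with a mean count of 100 or more 29.7% and 36.6%, beside 37.7% and 34.0% of the members. The median log2 change of the members was 0.04 in library 1 and -0.02 in library 2, and over all genes tested it was 0.002 and -0.0029. Both libraries are set against the same control, so a control value that is off moves both changes the same way. All 53 passed the filter on low counts, with between 137 and 7394 counts in the control.

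No member passed an adjusted p of 0.05 in edgeR's quasi-likelihood test over all genes, in either direction. The background is as sparse: 0% of the genes tested were called higher and 0.0174% lower (3 genes). The targeted gene USP16, at 16.2% and 33.2% of the control level, was not called either (edgeR adjusted p = 0.561). A member without a call may therefore still have changed. At an unadjusted p under 0.05 edgeR had 1 member higher and 2 lower, against 4.88% of all genes, and DESeq2 called no member either, with 1 higher and 1 lower at that unadjusted threshold. Among the members, the lowest edgeR adjusted p was 0.827, for HJURP. Over the alternatives the value for HJURP lay between 0.152 (unfiltered genes) and 1.000 (genes whose mean count was 100 or more, called well-counted genes here). The standard errors of the members' log2 changes in edgeR lay between 0.37 and 0.54. They rest on 1 residual degree of freedom per gene and on spread that edgeR shares across all genes tested. CENPE and HJURP thus had standard errors of 0.45 and 0.47, though the SD of their log2 changes was 0.00 and 0.74.

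**Figure D1:**
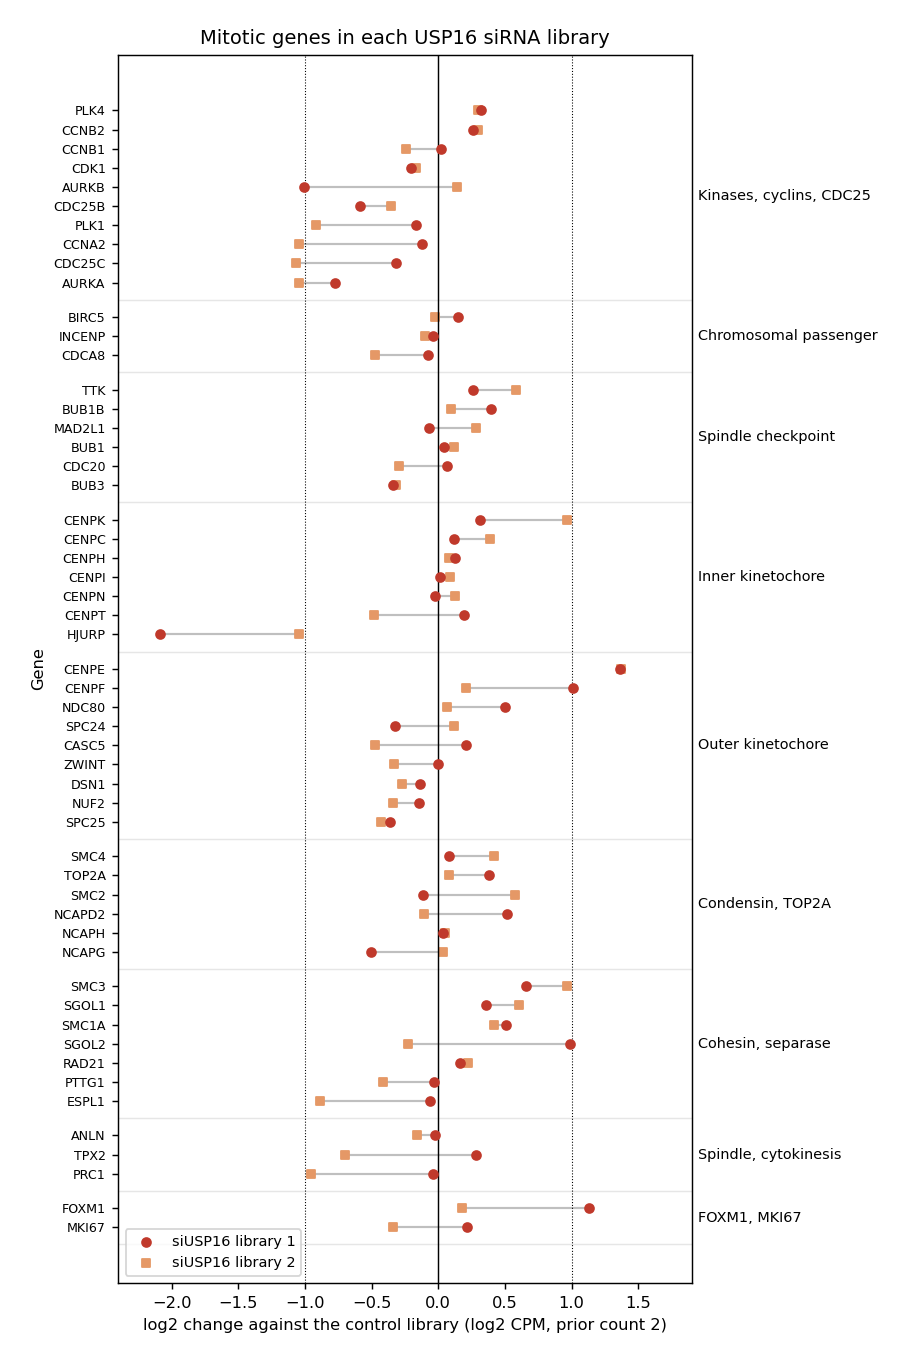
Log2 change of each of the 53 mitotic genes against the control library (x axis, log2 CPM with a prior count of 2), grouped by role, with siUSP16 library 1 as circles, siUSP16 library 2 as squares and dotted lines at 2-fold. HJURP lies beyond the left dotted line and CENPE beyond the right one in both libraries, and 15 genes lie on opposite sides of 0.

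By size, 1 member was at least 2-fold higher in both siUSP16 libraries, CENPE, and 1 was at least 2-fold lower, HJURP, which in library 2 lies close to that limit and misses it when scaled among well-counted genes. Over all genes tested 3.75% were at least 2-fold higher in both and 1.68% at least 2-fold lower, and over well-counted genes 1.36% and 1.02%, so 1 of 53 in each direction is near that background. Of the 53, 36 (67.9%) were within 1.5-fold of the control in both libraries, beside 56.3% of well-counted genes. In 13 members the exact binomial 95% interval of the change lay above 0 in both libraries (24.5%), beside 14.7% of all genes tested and 17.6% of well-counted genes. In 10 it lay below 0 in both (18.9%), beside 17.4% of all genes tested and 23.3% of well-counted genes. These intervals cover counting error only and narrow as counts grow.

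HJURP, the chaperone that loads CENP-A onto centromeres, was the member with the lowest change. Its gene, ENSG00000123485, spans chr2:233833416-233854566 (hg38, minus strand). It had 516 and 1169 counts in siUSP16 libraries 1 and 2, against 2070 in the control, or 36.4 and 75.2 CPM against 155.5 CPM. Both siUSP16 libraries were below the control, and library 1 was lower than library 2. The log2 changes were -2.09 and -1.05, with a mean of -1.57 ± 0.74 (SD, n = 2). That SD does not include any variation of the control, which is 1 library. Its level was 23.4% and 48.3% of the control. MROH2A, which overlaps HJURP on the opposite strand, had 0 counts in all 3 libraries.

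CENPE, the kinetochore kinesin that moves chromosomes to the spindle equator, was the member with the highest change. Its gene, ENSG00000138778, spans chr4:103105806-103198409 (hg38, minus strand). It had 1298 and 1430 counts in siUSP16 libraries 1 and 2, against 472 in the control, or 91.6 and 91.9 CPM against 35.5 CPM. The siUSP16 libraries were nearly equal and both above the control. The log2 changes were 1.37 in each library, with a mean of 1.37 ± 0.00 (SD, n = 2), edgeR adjusted p = 0.863, between 0.477 and 1.000 over the alternatives. No other annotated gene overlaps CENPE.

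**Figure D2:**
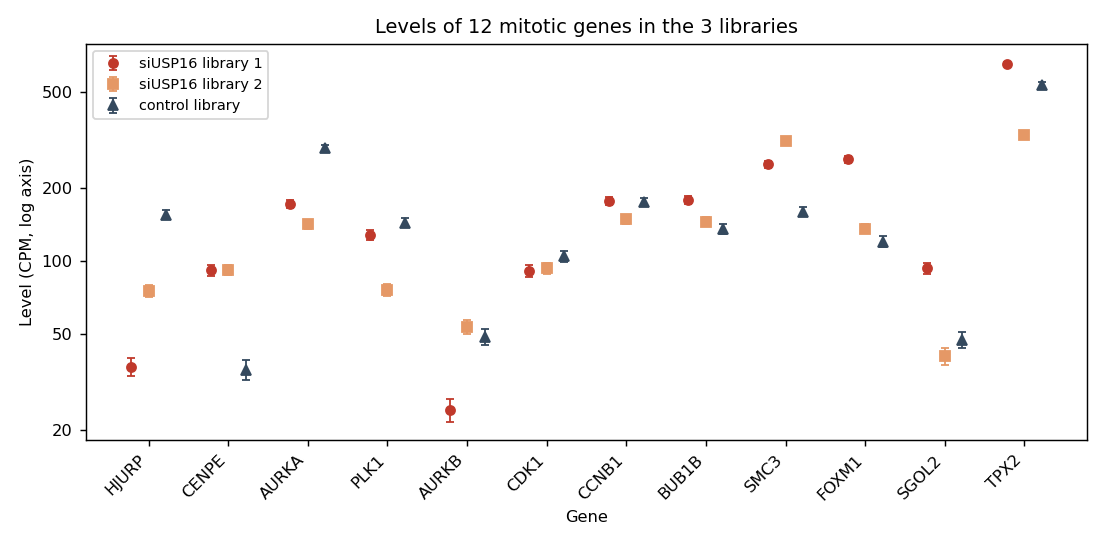
Levels (CPM, log axis) of 12 mitotic genes in siUSP16 library 1 (circles), siUSP16 library 2 (squares) and the control library (triangles), with exact Poisson 95% intervals that cover counting error only. HJURP (36.4 and 75.2 CPM against 155.5 CPM in the control) and CENPE (91.6 and 91.9 CPM against 35.5 CPM in the control) stand apart from the control in both siUSP16 libraries, while AURKB and SGOL2 differ most between the 2 siUSP16 libraries.

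Among the 10 kinases, cyclins and CDC25 phosphatases, 6 were lower in both siUSP16 libraries, 2 higher in both and 2 split, with medians of -0.19 in library 1 and -0.30 in library 2. AURKA, the Aurora kinase of centrosomes and spindle poles, had 2439 and 2215 counts in siUSP16 libraries 1 and 2, against 3911 in the control. It was lower in both, at 58.6% and 48.5% of the control level, and its log2 changes averaged -0.91 ± 0.19 (SD, n = 2). Its edgeR adjusted p was 0.999, between 0.829 and 1 over the alternatives. AURKB, the Aurora kinase of the chromosomal passenger complex, had 342 and 831 counts in the siUSP16 libraries, against 646 in the control, so library 1 was below the control (log2 change -1.004) and library 2 above it (0.14).

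PLK1, the polo kinase of mitotic entry and kinetochores, had 1824 and 1186 counts in siUSP16 libraries 1 and 2, against 1923 in the control. Both were below the control but by unlike amounts, with log2 changes of -0.17 and -0.92 and a mean of -0.54 ± 0.53 (SD, n = 2). PLK4, the kinase of centriole duplication, was the highest of these 10, with 713 and 769 counts in the siUSP16 libraries and 535 in the control (log2 changes 0.32 and 0.30).

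CDK1, the master kinase of mitosis, was close to the control, with 1288 and 1451 counts in siUSP16 libraries 1 and 2 and 1397 in the control (log2 changes -0.21 and -0.17). Its partner CCNB1 had 2523 and 2318 counts in the siUSP16 libraries and 2342 in the control (0.02 and -0.24). CCNB2, a second B-type cyclin, was at 0.26 and 0.30. CCNA2, cyclin A2 of S phase and G2, was at -0.12 and -1.04, and its gene overlaps EXOSC9 on the opposite strand. Of the CDC25 phosphatases, which activate cyclin-dependent kinases, CDC25B was at -0.59 and -0.35 and CDC25C at -0.31 and -1.07, and CDC25A, which is not among the 53, was at 1.03 and -0.13. CDC25C overlaps FAM53C on the opposite strand, which had 672 and 2519 counts in the siUSP16 libraries and 768 in the control. Per kilobase of transcript, the ratio of CCNB1 to CDK1 levels was 1.73 and 1.41 in siUSP16 libraries 1 and 2 and 1.48 in the control.

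The other subunits of the chromosomal passenger complex, which corrects wrong attachments between microtubules and kinetochores, were within 1.5-fold of the control in both libraries. BIRC5, survivin, had 485 and 472 counts in siUSP16 libraries 1 and 2 and 410 in the control (log2 changes 0.15 and -0.02). CDCA8, borealin, had 1636 and 1362 counts in the siUSP16 libraries and 1624 in the control (-0.08 and -0.48). INCENP, the scaffold, was at -0.04 and -0.10. Of the complex, AURKB alone lay more than 1.5-fold from the control, and only in library 1.

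All 6 spindle checkpoint genes were within 1.5-fold of the control in both libraries, with 3 higher in both, 1 lower in both and 2 split. BUB1B, the checkpoint protein BUBR1 that binds CDC20, had 2539 and 2266 counts in siUSP16 libraries 1 and 2, against 1813 in the control (log2 changes 0.40 and 0.10). Its readthrough gene BUB1B-PAK6 had 16 and 41 counts in the siUSP16 libraries and 0 in the control. TTK, the kinase MPS1 that starts checkpoint signalling, was the highest, with 1525 and 2094 counts in the siUSP16 libraries and 1197 in the control (0.26 and 0.58).

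BUB3, which binds phosphorylated kinetochore repeats, was the lowest of the checkpoint genes, with 1864 and 2075 counts in siUSP16 libraries 1 and 2 and 2218 in the control (-0.34 and -0.32). The kinase BUB1 was at 0.04 and 0.12, MAD2L1, the inhibitor MAD2, at -0.07 and 0.28, and CDC20, the activator that MAD2 holds, at 0.07 and -0.29. After a correction for transcript GC content, the fitted MAD2L1 change was -0.01, against 0.11 without it.

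The inner kinetochore genes other than HJURP encode subunits of the network that binds CENP-A nucleosomes, and none of these 6 was lower in both libraries. Of them, CENPC, CENPH, CENPI and CENPK were higher in both libraries, and CENPN and CENPT were split. CENPK was the highest, with 182 and 315 counts in siUSP16 libraries 1 and 2 and 137 in the control (log2 changes 0.32 and 0.97). CENPC was at 0.12 and 0.39, CENPH at 0.12 and 0.08, CENPI at 0.02 and 0.09, CENPN at -0.03 and 0.13 and CENPT at 0.19 and -0.48. The CENPI change was small enough to turn to -0.07 after the GC correction. CENPT overlaps NUTF2 on the opposite strand, which had 1761 and 2848 counts in the siUSP16 libraries and 1365 in the control.

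Of the 9 outer kinetochore genes, 3 were higher in both libraries, 4 lower in both and 2 split. In the NDC80 complex, the main microtubule receptor, NDC80 was at 0.50 and 0.07, NUF2 at -0.14 and -0.34, SPC24 at -0.32 and 0.12, and SPC25 was the lowest of the 9, with 490 and 513 counts in siUSP16 libraries 1 and 2 and 592 in the control (-0.36 and -0.43). Per kilobase of transcript, the ratio of NDC80 to its partner NUF2 was 3.37 and 2.88 in the siUSP16 libraries and 2.16 in the control.

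The other outer kinetochore genes include the scaffold CASC5 (KNL1), at 0.21 and -0.47, the MIS12 complex subunit DSN1, at -0.14 and -0.27, and ZWINT, which links to the dynein adaptor complex, at -0.00 and -0.33. CENPF, a large protein that binds microtubules, was at 1.01 in library 1 and 0.21 in library 2. The principal transcripts of CENPF and CENPE are 10307 and 8612 bases long, beside a median of 3187 over the 53. Other long members did not share 1 direction. SMC1A (9784 bases) was higher in both libraries, at 0.51 and 0.42. MKI67 (12678 bases) and CASC5 (9573 bases) were split, and BUB3 (7828 bases) was lower in both, at -0.34 and -0.32.

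Condensin genes, whose products compact mitotic chromosomes, were within 1.5-fold of the control in both libraries, as was TOP2A, the topoisomerase that untangles sister chromatids. SMC4 was the highest, with 3003 and 4154 counts in siUSP16 libraries 1 and 2 and 2668 in the control (log2 changes 0.08 and 0.41). NCAPG was the lowest, with 1719 and 2734 counts in the siUSP16 libraries and 2287 in the control (-0.50 and 0.03). SMC2, the partner of SMC4, was at -0.12 and 0.57, NCAPD2 at 0.51 and -0.11, NCAPH at 0.04 and 0.05, and TOP2A at 0.38 and 0.08. Per kilobase, the ratio of SMC2 to SMC4 was 0.421 and 0.540 in the siUSP16 libraries and 0.483 in the control.

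The core cohesin genes, whose products hold sister chromatids together, were higher in both libraries. SMC3 was the highest of the cohesin group, with 3576 and 4873 counts in siUSP16 libraries 1 and 2, against 2132 in the control. Both siUSP16 libraries were above the control, with log2 changes of 0.66 and 0.97 and a mean of 0.81 ± 0.22 (SD, n = 2), and the edgeR adjusted p was 0.999, between 0.945 and 1 over the alternatives. SMC1A was at 0.51 and 0.42 and the kleisin RAD21 at 0.16 and 0.22. SGOL1, the shugoshin that protects centromeric cohesin, was at 0.36 and 0.61, while its relative SGOL2 was at 0.99 and -0.22.

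ESPL1, separase, which cuts cohesin, was the lowest of the cohesin group, with 2038 and 1260 counts in siUSP16 libraries 1 and 2 and 1995 in the control (-0.06 and -0.89). PTTG1, securin, the inhibitor of separase, was at -0.03 and -0.42. Per kilobase, the ratio of PTTG1 to ESPL1 was 5.38 and 7.32 in the siUSP16 libraries and 5.28 in the control.

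Of the 3 spindle and cytokinesis genes, 2 were lower in both libraries and 1 was split. PRC1, the bundler of midzone microtubules, had 2003 and 1161 counts in siUSP16 libraries 1 and 2 and 1931 in the control (-0.04 and -0.96). ANLN, anillin of the contractile ring, had 2892 and 2891 counts in the siUSP16 libraries and 2763 in the control (-0.02 and -0.16). TPX2, the activator of AURKA on the spindle, was at 0.28 and -0.70.

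FOXM1, the transcription factor that drives G2 and M genes, had 3738 and 2121 counts in siUSP16 libraries 1 and 2, against 1605 in the control. Both were above the control, with log2 changes of 1.13 and 0.18 and a mean of 0.65 ± 0.67 (SD, n = 2). RHNO1, which overlaps FOXM1 on the opposite strand, had 335 and 274 counts in the siUSP16 libraries and 514 in the control. MKI67, the proliferation marker Ki-67, had 2463 and 1847 counts in the siUSP16 libraries and 1996 in the control (0.21 and -0.34), and its fitted change of -0.04 turned to 0.00 on the positive side after the GC correction and among well-counted genes.

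**Figure D3:**
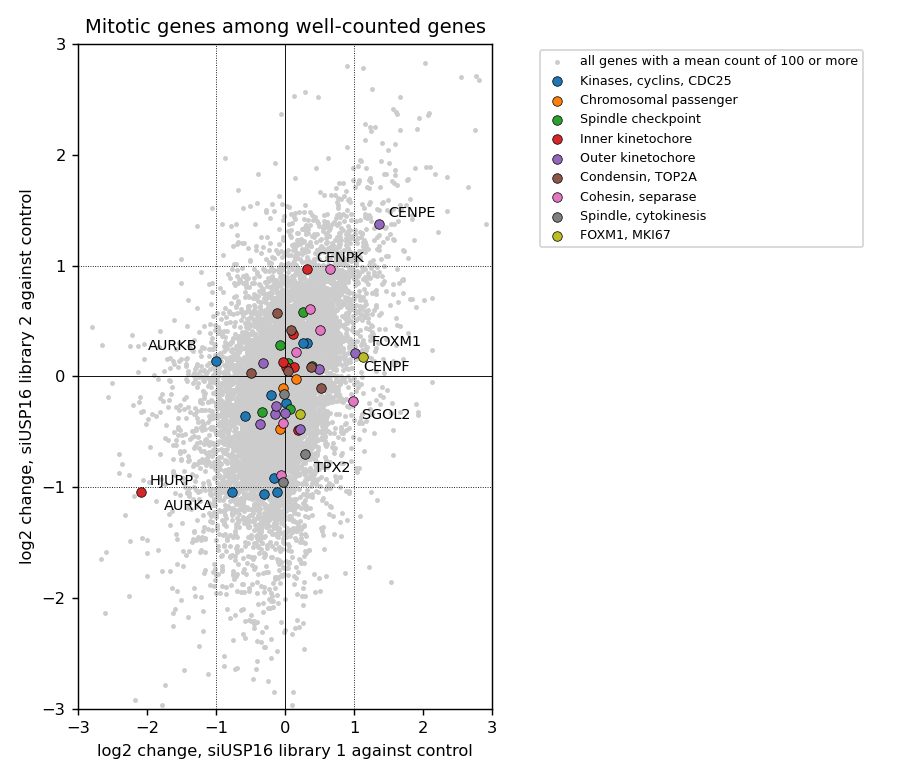
Log2 change against the control in siUSP16 library 1 (x axis) and siUSP16 library 2 (y axis) for the 53 mitotic genes, coloured by role, over grey points for the 11236 well-counted genes, with axes from -3 to 3 that leave out 21 of these and dotted lines at 2-fold. Most mitotic genes lie in the dense centre of the grey points, CENPE and HJURP at opposite corners, and SGOL2, FOXM1 and CENPF to the right with small changes in library 2.

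The 2 siUSP16 libraries also differed from each other. The median gap between their log2 changes was 0.32 over the members, beside 0.36 over well-counted genes. In 40 of 53 members the gap was larger than counting error (exact binomial 95% interval), with library 2 lower in 25 (47.2%) and higher in 15 (28.3%). Library 2 was lower beyond counting error in 31% of all genes tested and 38.8% of well-counted genes, and higher in 29.7% and 35.5%. By size, 3 members were at least 2-fold apart, SGOL2 (library 2 minus library 1, -1.21), AURKB (1.14) and HJURP (1.04), beside 15.7% of all genes tested and 10.4% of well-counted genes. Library 2 was also below library 1 by the next largest amounts in TPX2 (-0.98), FOXM1 (-0.95), PRC1 (-0.92), CCNA2 (-0.92), ESPL1 (-0.83), CENPF (-0.80), PLK1 (-0.75) and CDC25C (-0.75).

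Transcript levels per kilobase spanned a wide range. In the control the highest were TPX2 (154 CPM per kilobase), AURKA (131), CDC20 (124) and PTTG1 (120), and the lowest were CENPC (2.58), CENPE (4.12), CENPK (5.93) and SPC24 (6.04). In siUSP16 libraries 1 and 2, TPX2 had 187.3 and 94.96 CPM per kilobase, AURKA 76.6 and 63.4, CENPC 2.80 and 3.37 and CENPE 10.6 and 10.7. Lengths are those of the principal transcript in GENCODE 29, and another isoform in use would shift these levels.

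The members' changes were set beside base composition. Across the 53 genes, Spearman's rho between transcript GC content and log2 change was -0.27 in library 1 and -0.45 in library 2, and with transcript length 0.32 and 0.21. Over all genes tested the same values were -0.07 and -0.20 for GC content and -0.01 and -0.03 for length. These describe genes that share the same 3 libraries and are not independent replicates. CENPE is at the low end of GC content, at 35.3%, with HJURP at 48.8% and a median of 43.2% over the members. The part of base composition in these changes was not tested beyond a correction that removes the median change of genes in the same of 10 bins of GC content. After it, the fitted log2 change was 1.19 for CENPE, against 1.37 without it, and -1.44 for HJURP, against -1.48. Members higher in both libraries then numbered 14, and members lower in both 17. The shares of all genes after the same correction are not given here, so these counts are not read as particular to the members.

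**Figure D4:**
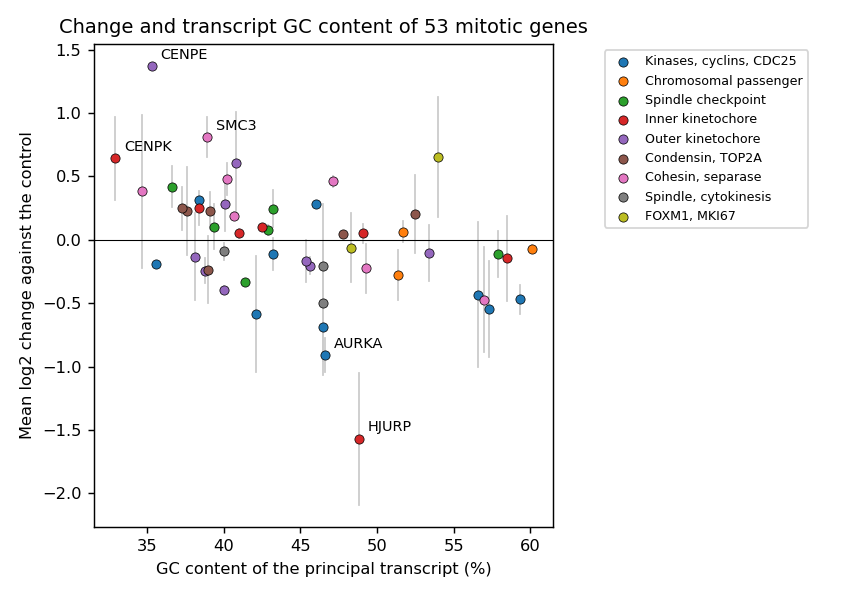
Mean log2 change against the control (y axis, with grey lines joining the values of siUSP16 libraries 1 and 2) and GC content of the principal transcript (x axis, percent) for the 53 mitotic genes, coloured by role. Of the 15 genes under 40% GC, 11 have a mean above 0 and 4 below it (CDK1, CASC5, NUF2 and NCAPG). The 7 genes over 55% have means below 0, though AURKB, CDC20 and CENPT were above 0 in 1 library each. HJURP (48.8%) has the lowest value. These limits were set after the values were seen, and shares of all genes within them were not computed. Over all genes tested the mean change also fell with GC content (Spearman's rho -0.163, beside -0.453 over the members).

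Genes of the same processes outside the 53 also stayed close to the control as a group. Of 99 other genes for the anaphase-promoting complex, the kinetochore, mitotic kinases, condensin and cohesin, and the spindle, 98 were tested. None passed an adjusted p of 0.05 in edgeR in either direction. In both libraries 29 were higher (29.6%) and 37 lower (37.8%). The same shares were 33.4% and 33.5% over all genes tested and 29.7% and 36.6% over well-counted genes. The medians of these other genes were -0.01 in library 1 and -0.12 in library 2. The 1 gene at least 2-fold from the control in both was CCNB3, a cyclin known mainly from meiosis, with 34 and 38 counts in siUSP16 libraries 1 and 2 and 13 in the control; it was named after its values were seen. The 18 genes of the anaphase-promoting complex and mitotic exit had medians of -0.08 and -0.03. The list of 16 other condensin, cohesin and related genes had medians of 0.12 and 0.15, with 9 higher in both (56.2%) and 5 lower in both (31.2%). It also holds genes that are neither condensin nor cohesin. These are SMC5 (0.48 and 1.14) and SMC6 (0.46 and 0.81), of a separate SMC complex, and PTTG1IP (-0.35 and -0.40), which binds securin.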

How the data were processed

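Per the file headers, the authors deposited 1 table per library with whole-number counts for 50868 Ensembl genes, not normalized. HISAT2 2.0.4, StringTie 1.3.0 and hg38 are listed, without roles, per the submitters' processing notes. How reads were counted, with or without strand, is not given in the sources used here, so reads of overlapping or near-identical genes cannot be told apart. The count column of the second siUSP16 file is headed with the number 6 where its label has 2; the label was followed.

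Genes passing edgeR's filterByExpr (17287) were given TMM scaling factors (1.02, 1.03 and 0.952 for siUSP16 libraries 1 and 2 and the control). They were tested with edgeR 4.0.16 (quasi-likelihood, R 4.3.3), Benjamini-Hochberg adjusted over all genes. The 3 libraries leave 1 residual degree of freedom per gene, which comes from the siUSP16 pair, and the lone control is taken to share that spread. The edgeR estimate of spread for each gene also draws on all other genes tested. Log2 changes per library use log2 CPM with a prior count of 2. The script was tested on simulated data. DESeq2 1.42.0 was an alternative, beside other filters, scalings, a prior count of 10, each siUSP16 library left out, and corrections for transcript length and GC content (GENCODE 29, 50111 identifiers matched, 98.5%). Promoters are from RefSeq on GRCh38.p14. The members and lists were chosen with earlier results of these data known. Counts are printed for members at least 2-fold from the control in both siUSP16 libraries, for PLK1, AURKB, CDK1, CCNB1 and BUB1B, and for the highest and lowest member of each role group. The shares of all genes beyond counting error and the GC limits of 40% and 55% were added after the values were seen.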

Additional observations from a re-analysis of the deposited data

How the results depend on the processing

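No member passed an adjusted p of 0.05 under any alternative with a test. No paired analysis was possible because both siUSP16 libraries share the single control library. The count of members at least 2-fold lower in both siUSP16 libraries was 0 in place of 1 among genes whose mean count was 100 or more, since HJURP in library 2 lies close to 2-fold. With 1 siUSP16 library left out there is no test: members at least 2-fold higher ran from 1 to 3, members at least 2-fold lower from 2 to 4, and the members' median change from -0.0174 to 0.0385. All genes at least 2-fold higher then ran from 1218 to 1720 and lower from 957 to 1537, and 8648 to 8667 genes were higher than the control. Fitted changes near 0 turned sign for MAD2L1 (-0.00747), CENPI (-0.0657) and MKI67 (0.00074) after the GC correction, and for MKI67 (0.0020) with the minimum mean of 100 counts. The 3 calls over all genes were lower, with 0 higher, in the main edgeR test, and USP16 (adjusted p = 0.561) was not among them. With no filter edgeR called 40 higher and 30 lower, and USP16 passed (log2 change -2.03, adjusted p = 0.0188). With no filter 1071 genes were 2-fold higher in both, 673 lower, and 9239 on the lower side. With the minimum mean of 100 counts edgeR called 1 lower, 170 genes were 2-fold higher and 91 lower, and 3643 and 3709 were on the higher and lower side. A prior count of 10 gave 286 and 178. DESeq2 called 8 higher and 6 lower, the length correction 1 higher, and the GC correction 1 lower. The cause of these shifts was not tested.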
